A study of Mus musculus with 3 samples.

Results

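Ly6a, Ly6c1, Ly6c2, Ly6d, Ly6e, Thy1, Cd24a and Cd52 encode lymphocyte surface proteins that are held in the outer leaflet of the membrane by a glycosylphosphatidylinositol (GPI) anchor. These 8 genes, of 55536 annotated genes, were found by their GENCODE M21 symbols in the gene tables and the transcript tables. RNA was measured in effector memory CD4-positive, alpha-beta T cells, antigen-experienced helper T cells, taken as primary cells from 1 adult male mouse of strain B6.SJL-Ptprca Pepcb/BoyJ aged 5 months. That strain is a C57BL/6 line congenic for an allele of the CD45 gene. Poly(A)-selected RNA was sequenced in 3 libraries that the labels number as technical replicates 1, 2 and 3 of 1 biosample, and those numbers name the libraries here. There is 1 group, no treatment and no other cell type, so conditions could not be compared, and each SD is a spread between libraries that may be technical. The sources used here do not give the sorting gate.

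A GPI anchor is a glycolipid built in the endoplasmic reticulum and joined to the carboxyl end of a protein in place of a transmembrane segment. Proteins anchored in this way have no cytoplasmic part, and they gather with Src family kinases and the adaptor LAT in cholesterol-rich membrane domains. In mice the Ly6 family lies in a gene cluster and supplies classical markers of leukocyte subsets, several of which are induced by interferon. Ly6C and Sca-1, the product of Ly6a, are used in flow cytometry to describe memory and activated mouse T cells, and Thy1 is a pan T cell antigen of the mouse.

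Library 1 stood apart from the others across the transcriptome. Expected counts, estimates in which a read is shared among the transcripts it matches, totalled 17475086, 15303744 and 16882441 in libraries 1, 2 and 3. The common coefficient of variation of counts was 0.361 over the 3 libraries and 0.0775 over libraries 2 and 3. Member levels are therefore given for each library, and the tests were repeated on libraries 2 and 3 alone. All 5 T cell markers were detected, led by Trac at 4687 TPM, a level scaled for transcript length and library size, and Cd4 averaged 444.5 TPM. The 5 markers summed to 8927, 5880 and 5747 TPM in libraries 1, 2 and 3. Detection means at least 1 TPM in each library.

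The coding sequences of the most alike pair and of the member with the shortest reading frame are shown because they set what the reads can tell apart and how short these proteins are. Ly6c1 and Ly6c2 both encode Ly6C, and their coding sequences of 396 bases differ at 9 positions. The first 300 bases are printed with the 7 differences that fall in them in capitals. The genes lie at chr15:75044018-75048830 (Ly6c1) and chr15:75108158-75111970 (Ly6c2) in GRCm38, both on the minus strand. Cd52, at chr4:134082448-134095082 on the minus strand, has a reading frame of 225 bases, or 74 codons before the stop, and its start and stop codons are in capitals. Its product is a very short sialoglycoprotein, the human form of which is the target of the antibody alemtuzumab. Sequences run 5′ to 3′ and come from the GENCODE M21 transcripts Ly6c1-201, Ly6c2-201 and Cd52-201.
Ly6c1 coding sequence, first 300 bases: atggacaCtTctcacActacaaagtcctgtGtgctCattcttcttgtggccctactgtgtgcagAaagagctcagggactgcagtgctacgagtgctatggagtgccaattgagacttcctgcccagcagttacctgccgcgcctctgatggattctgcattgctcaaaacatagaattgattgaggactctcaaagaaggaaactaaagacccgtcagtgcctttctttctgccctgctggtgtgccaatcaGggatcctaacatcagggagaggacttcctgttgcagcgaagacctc
Ly6c2 coding sequence, first 300 bases: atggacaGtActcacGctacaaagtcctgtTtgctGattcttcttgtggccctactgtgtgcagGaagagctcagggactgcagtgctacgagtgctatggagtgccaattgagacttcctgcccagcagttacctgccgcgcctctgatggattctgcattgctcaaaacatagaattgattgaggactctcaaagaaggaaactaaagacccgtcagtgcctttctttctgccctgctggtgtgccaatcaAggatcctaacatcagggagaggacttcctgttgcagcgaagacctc
Cd52 coding sequence: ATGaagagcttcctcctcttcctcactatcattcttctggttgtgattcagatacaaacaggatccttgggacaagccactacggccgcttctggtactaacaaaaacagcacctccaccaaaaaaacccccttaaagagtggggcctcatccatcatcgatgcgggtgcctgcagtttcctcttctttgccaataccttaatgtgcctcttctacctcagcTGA
Within the family the pair stands closest, with 97.7% of aligned bases identical. Ly6a matched Ly6c1 at 82.0% and Ly6c2 at 81.7% of aligned columns, whereas each pair with Ly6e or Ly6d lay between 45.7% and 52.2%.

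Likeness on this scale bears on what the reads can separate. Of the 795 words of 50 bases, the read length, in Ly6c1-201, 292 (36.7%) also occur in transcripts of another gene, and 252 of them are shared with Ly6c2. In Ly6c2-201 the shared words were 255 of 773 (33.0%), in Ly6a-201 62 of 770 (8.05%), and in Cd24a-201 69 of 1767 (3.90%), the last with Gm6212. The Ly6a words are shared with Ly6c1, Ly6c2, Ly6i and I830127L07Rik. The leading coding transcripts of Ly6e, Cd52, Thy1 and Ly6d shared no word with another gene. Levels of Ly6c1 next to its more abundant copy are accordingly uncertain.

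The most abundant members were Ly6e and Cd52. Ly6e, at chr15:74955051-74959905 on the plus strand and also known as TSA-1 or Sca-2, encodes a surface protein of thymocytes and many other cells that restricts entry of several coronaviruses. Its level was 1065, 1377 and 1509.9 TPM in libraries 1, 2 and 3, a mean of 1317 ± 228 (SD, n = 3). Cd52 had 951, 1347 and 1575 TPM in libraries 1, 2 and 3, a mean of 1291 ± 316 (SD, n = 3). Both ranked among the 100 most abundant of all genes, Ly6e at place 83 and Cd52 at place 89 by mean TPM, and each above 99.3% of detected protein-coding genes. Their ranges overlapped, and Ly6e was the higher in libraries 1 and 2 only, so no order between them was established. Without library 1 the means were 1443 TPM for Ly6e and 1461 TPM for Cd52. Cd52 overlaps Crybg2, a gene on the opposite strand with a mean of 15.5 TPM. The sources used here do not say whether counting used strand. In bulk RNA such as this, fewer cells that express a gene and less RNA of it per cell cannot be told apart.

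Ly6a and Ly6c2 followed at lower levels. Ly6a, at chr15:74994877-74998031 on the minus strand, encodes Sca-1, an interferon-inducible marker of mouse haematopoietic stem cells and of activated and memory T cells. It had 244, 472 and 530.4 TPM in libraries 1, 2 and 3, a mean of 415 ± 151 (SD, n = 3). Ly6c2, the more abundant Ly6C gene here, had 139, 371 and 428 TPM in libraries 1, 2 and 3, a mean of 313 ± 153 (SD, n = 3). Every library of Cd52 lay above every library of Ly6a, and the ratio of their means was 3.11. Ly6a was above Ly6c2 within each of the 3 libraries, by 1.33-fold in the means, but the ranges of the genes overlapped. In library 1 the Ly6c2 level was 0.571 of that of Ly6a, against 0.786 in library 2 and 0.806 in library 3.

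Thy1 and Ly6c1 were lower. Thy1 (CD90), at chr9:44043384-44048579 on the plus strand, is abundant on mouse T cells and neurons. It had 56.0, 84.7 and 114 TPM in libraries 1, 2 and 3, a mean of 84.8 ± 28.8 (SD, n = 3), and it stood above 78.9% of detected protein-coding genes. Ly6c1 had 9.33, 14.4 and 22.6 TPM in libraries 1, 2 and 3, a mean of 15.4 ± 6.68 (SD, n = 3), above 33.5% of detected protein-coding genes, whose median was 28.9 TPM. Neither overlapped its neighbours in the order: Ly6c2 exceeded Thy1 by 3.69-fold in the means and Thy1 exceeded Ly6c1 by 5.49-fold. Ly6c2 exceeded its near-identical copy by 14.9-fold in library 1, 25.7-fold in library 2 and 18.9-fold in library 3.

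Ly6d and Cd24a did not reach detection. Ly6d, at chr15:74762056-74763620 on the minus strand, marks lymphoid progenitors that are committed to the B cell lineage. It had 9, 4 and 7 counts in libraries 1, 2 and 3, or 1.2, 0.65 and 0.97 TPM. Cd24a, at chr10:43578284-43584265 on the plus strand, encodes heat stable antigen, which is abundant on immature thymocytes and B cells. It had no count in library 1, which at 3 counts allows up to 0.158 TPM of its transcript Cd24a-201, the one with counts in the other libraries, and 7 and 12 counts in libraries 2 and 3, or 0.45 and 0.66 TPM. Cd24a was below the threshold in every library and Ly6d in libraries 2 and 3. With 20 counts (Ly6d) and 19 counts (Cd24a) in all, neither was tested between libraries. The limit covers counting error only. Of the 8 genes 6 were detected, where 44.9% of 22028 protein-coding genes and 21.1% of all annotated genes were.

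**Figure D1:**
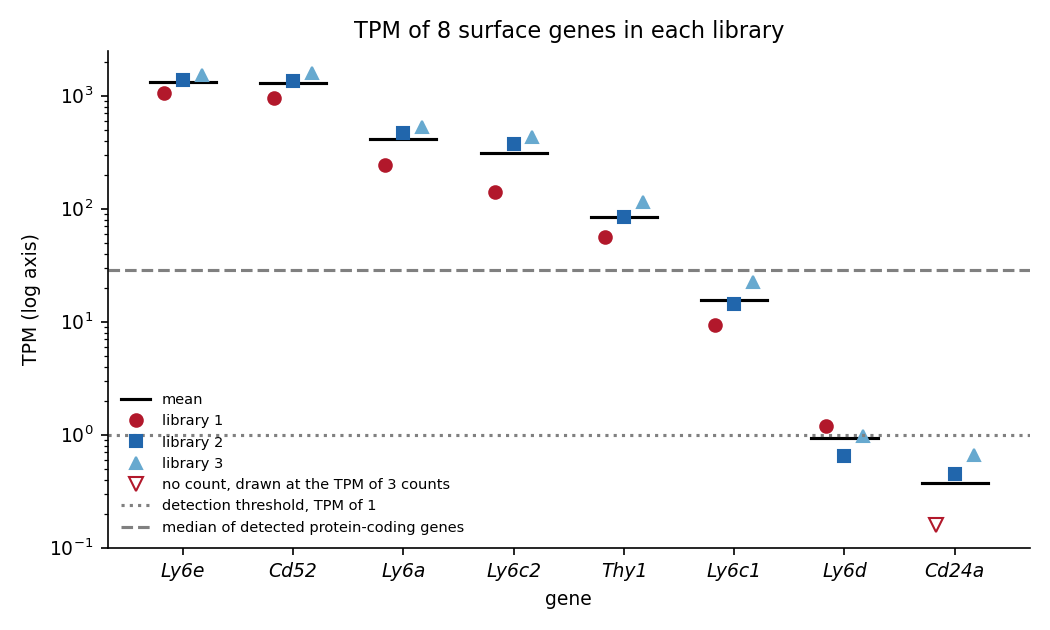
TPM of the 8 genes (log axis) in libraries 1, 2 and 3, with the mean as a black line, the detection threshold of 1 TPM dotted and the median of detected protein-coding genes, 28.9 TPM, dashed. The 6 detected genes run from 1317 TPM (Ly6e) to 15.4 TPM (Ly6c1) with library 1 lowest in each, and Ly6d and Cd24a lie around or under the threshold.

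Set against Cd3e, an invariant chain of the T cell receptor complex, within each library, Ly6e reached 223% ± 54.7 and Cd52 214% ± 38.7 of its TPM (SD, n = 3). Ly6a stood at 66.2% ± 4.85, Ly6c2 at 47.9% ± 10.2, Thy1 at 13.8% ± 2.33 and Ly6c1 at 2.48% ± 0.575 of it (SD, n = 3). Cd3e itself had 374, 762 and 742 TPM in libraries 1, 2 and 3, so library 1 was the lowest for it as well. Cd4 was also lowest there, at 269, 541 and 523 TPM in libraries 1, 2 and 3. The other T cell markers went the opposite way, with Trac at 6922, 3647 and 3493 TPM, Cd3g at 881, 585 and 611 TPM and Cd3d at 482, 345 and 378 TPM, so the percentages depend on the marker taken. Without library 1 the mean shares of Cd3e were 192% for Ly6e, 195% for Cd52, 66.7% for Ly6a, 53.2% for Ly6c2, 13.2% for Thy1 and 2.47% for Ly6c1. The 8 genes together summed to 2466, 3668 and 4181 TPM in libraries 1, 2 and 3, which is 0.344% ± 0.0880 of all transcripts (SD, n = 3).

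Of the 8 genes 5 lie in the Ly6 cluster of chromosome 15. Over 550 kb around Ly6a the annotation holds 38 genes, of which 22 are protein-coding, 7 were detected and 17 had 0 counts over the libraries. The protein-coding genes detected were Ly6e, Ly6a, Ly6c2 and Ly6c1 together with Ly6k at 4.77 ± 1.61 TPM and Them6 at 2.79 ± 0.982 TPM (SD, n = 3). The seventh was the non-coding gene Gm39556 at 3.17 ± 1.48 TPM (SD, n = 3). Ly6e starts 43.0 kb from the Ly6a start on one side, and Ly6c1 and Ly6c2 start 50.8 and 113.9 kb away on the other. The neighbours Ly6i, between Ly6e and Ly6a, and Ly6g, the neutrophil antigen gene beyond Ly6c2, had 2 counts each over the 3 libraries. Abundant genes and genes with almost no count alternate over this stretch.

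**Figure D2:**
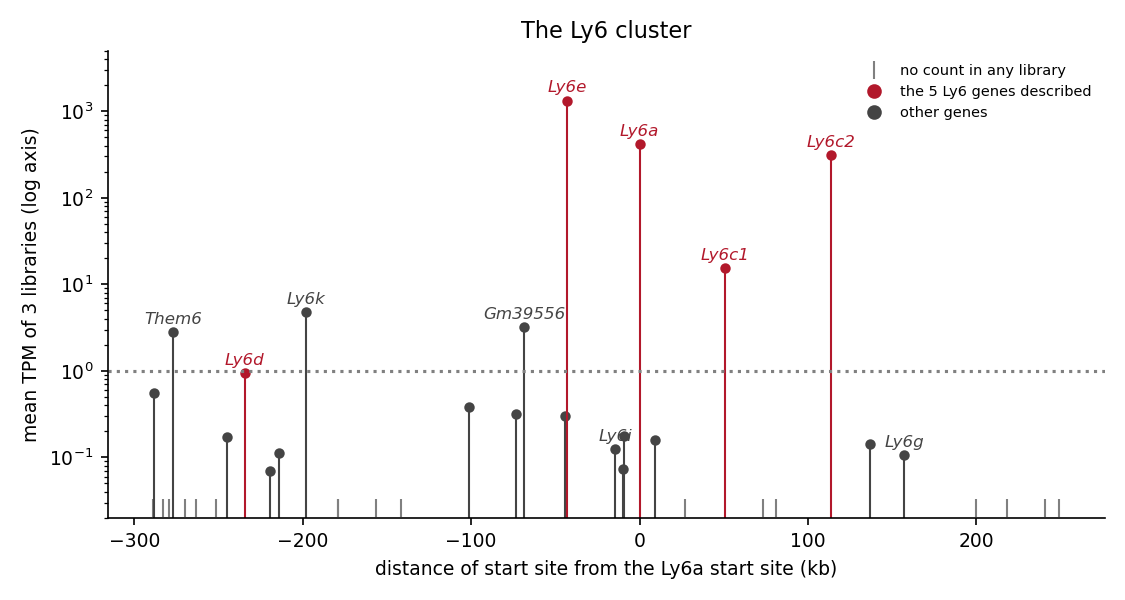
Mean TPM over the 3 libraries (log axis) of the genes in the Ly6 cluster against the distance of their start sites from that of Ly6a (kb), with genes without any count as ticks at the base. Ly6e, Ly6a, Ly6c2 and Ly6c1 stand above 10 TPM and no other gene of the window exceeds the 4.77 TPM of Ly6k.

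RefSeq promoter windows, 250 bases before to 50 after a start, were at hand for Ly6c1 and Ly6c2. They are shown because these copies differ in level while their coding sequences nearly coincide. Each gene has 2 such windows, and the 1 nearest the annotated gene start was used. The identity and motif values below cover that window only. The windows used lie at chr15:75048788-75049087 (Ly6c1) and chr15:75111922-75112221 (Ly6c2) on the minus strand of GRCm38.p6. Capitals mark bases that differ within the aligned stretch.
Ly6c1 promoter: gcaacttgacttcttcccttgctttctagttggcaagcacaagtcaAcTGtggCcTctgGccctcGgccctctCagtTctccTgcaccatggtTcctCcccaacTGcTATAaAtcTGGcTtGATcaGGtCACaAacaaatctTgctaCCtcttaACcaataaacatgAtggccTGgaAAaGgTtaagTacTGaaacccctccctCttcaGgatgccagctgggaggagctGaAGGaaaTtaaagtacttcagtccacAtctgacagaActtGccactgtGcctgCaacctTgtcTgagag
Ly6c2 promoter: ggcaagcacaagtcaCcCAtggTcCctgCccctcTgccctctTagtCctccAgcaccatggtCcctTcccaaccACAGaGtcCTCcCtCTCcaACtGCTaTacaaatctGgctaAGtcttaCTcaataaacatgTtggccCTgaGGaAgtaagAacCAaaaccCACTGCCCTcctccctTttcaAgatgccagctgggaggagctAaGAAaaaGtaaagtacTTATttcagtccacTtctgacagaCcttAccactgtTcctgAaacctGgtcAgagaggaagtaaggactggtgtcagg
Of 282 aligned columns 208 were identical (73.8%), 58 were mismatched and 16 held a gap. The interferon-linked GAS motif, searched as TTCNNNGAA on both strands with overlapping matches allowed, had 0 matches in these windows and occurred in 8.30% of 32851 windows of the same length. That says only that these letters are not in these windows.

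Transcript shares, the deposited percent of a gene that each transcript makes up, were steady for Ly6e, Cd52, Ly6a and Ly6c2. Ly6d has 1 annotated transcript and Cd24a had no count in library 1, so their shares do not bear on this. Ly6e-215 made up 90.3%, 88.7% and 89.7% of Ly6e in libraries 1, 2 and 3, although 16 Ly6e transcripts are annotated and 13 had counts. Ly6e transcripts annotated as retained introns held 5.83% ± 0.621 (SD, n = 3). Cd52-201 made up 97.7% ± 0.288, Ly6a-201 96.2% ± 0.491 and Ly6c2-201 98.5% ± 1.16 of their genes (SD, n = 3). The main isoforms of these abundant genes were the same in each library.

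Ly6c1 and Thy1 were different. Ly6c1-202 held 97.3% of Ly6c1 in library 1 and 0% in libraries 2 and 3, where Ly6c1-201 held 98.4% and 90.8%, and Ly6c1-201 held 0% in library 1. The transcripts share 745 of the 789 words of 50 bases in Ly6c1-202 (94.4%), and Ly6c1 had 78, 102 and 182 counts in libraries 1, 2 and 3. The assignment of Ly6c1 reads to these isoforms is uncertain for that reason. Thy1 had no transcript above 50% of the gene in the means. Thy1-201, protein-coding, held 40.1%, 30.2% and 29.7% in libraries 1, 2 and 3, and Thy1-203, annotated as a processed transcript without a reading frame, held 31.1%, 32.4% and 39.4%. Thy1-203 shares 354 of its 400 words (88.5%) with Thy1-201, so the assignment of Thy1 reads is uncertain as well. These shares are of TPM, which is scaled for length, and Thy1-203 is short, at 449 bases against 1735. In expected counts Thy1-201 led, with 407, 383 and 589 in libraries 1, 2 and 3. Thy1-203 had 74.9, 97.2 and 186, of 558, 639 and 979 for the gene. Protein-coding transcripts together made up 61.3% ± 6.23 of Thy1, against 94.2% ± 0.612 of Ly6e (SD, n = 3).

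**Figure D3:**
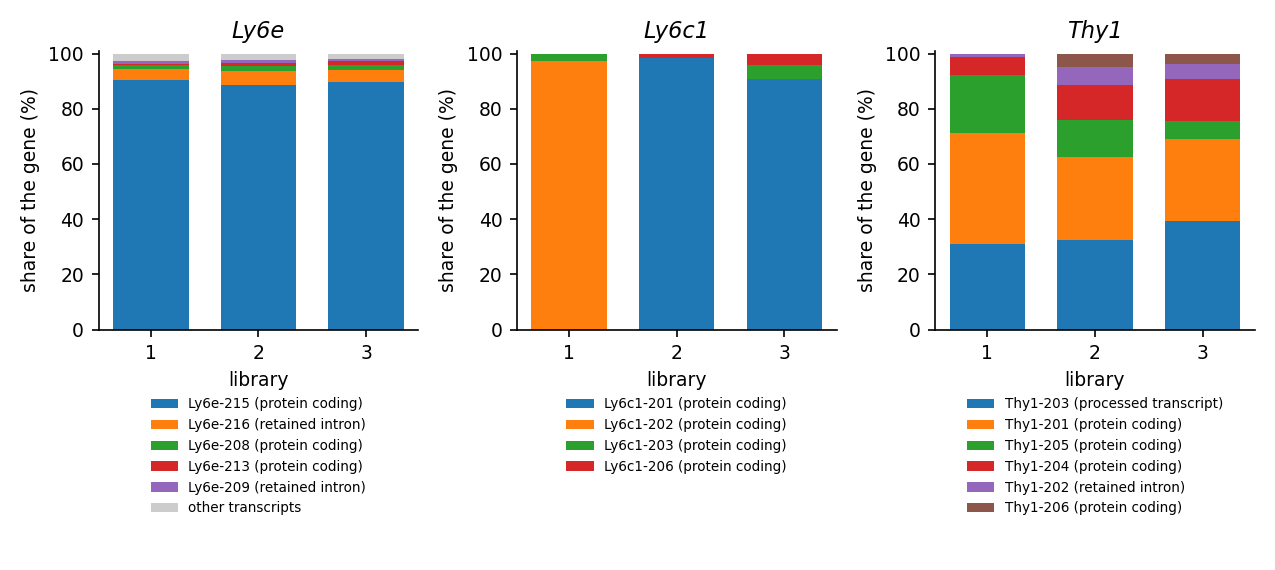
Share of each gene (%) taken by its transcripts in libraries 1, 2 and 3, for Ly6e, Ly6c1 and Thy1, with the annotated class of each transcript in the key. Ly6e is led by 1 transcript at 88.7% to 90.3%, Ly6c1 by Ly6c1-202 in library 1 and Ly6c1-201 in the others, and Thy1 by none above 50% in any library.

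The libraries differed in these genes beyond counting error. Counts of each gene were set against the library totals with Pearson's chi-square test of homogeneity on rounded expected counts, for genes with at least 30 counts, and p-values were Benjamini-Hochberg adjusted over all genes tested. The test compares libraries and not conditions. All 6 members tested passed at an adjusted p below 0.05, as did 75.8% of 13177 genes, so passing is not particular to them. Ly6c2 had an adjusted p of 2.2e-255, Ly6a 9.53e-188, Ly6e 1.26e-171, Cd52 1.76e-162, Thy1 1.71e-29 and Ly6c1 8.36e-11 in that chi-square test. The median overdispersion of the genes tested was 19.9 times counting error. With the chi-square statistics divided by it, Thy1 (adjusted p = 0.133) and Ly6c1 (adjusted p = 0.727) no longer passed, and 4 of 6 members and 21.6% of genes did.

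Every detected member was lowest in library 1. The Ly6c2 level in library 1 was 34.9% of its mean in libraries 2 and 3, and that of Ly6a was 48.7%. Ly6c1 stood at 50.4%, Thy1 at 56.5%, Cd52 at 65.1% and Ly6e at 73.8%. On the log2(TPM + 1) scale the difference of library 1 from the mean of the others was −1.51 for Ly6c2, −1.03 for Ly6a, −0.88 for Ly6c1, −0.80 for Thy1, −0.61 for Cd52 and −0.44 for Ly6e. The median over the genes tested was −0.10. A TPM lowest in library 1 was found in 50.1% of genes tested. Of the 6 members 5 passed the test, were below both other libraries in library 1 and were at least 1.5-fold below their log2 mean. By the same rule 24.1% of genes tested were lower and 16% higher in library 1. Ly6e did not reach 1.5-fold.

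Libraries 2 and 3 also differed in these genes, by less. All 6 members were higher in library 3, by 1.10-fold for Ly6e, 1.12-fold for Ly6a, 1.15-fold for Ly6c2, 1.17-fold for Cd52, 1.34-fold for Thy1 and 1.57-fold for Ly6c1 in TPM. Each passed the chi-square test between these libraries, with adjusted p of 4.34e-34 for Ly6e, 2.37e-31 for Cd52, 3.78e-12 for Ly6a, 4.61e-12 for Ly6c2, 3.42e-09 for Thy1 and 0.00117 for Ly6c1. Of 12468 genes 16.7% passed it. Those genes have any depth from 30 counts up, and genes with more counts pass at smaller differences. Ly6e had 12945 and 16551 counts in libraries 2 and 3. No share over genes of like depth was computed for this or the next tests. On the whole-number counts of a second deposited gene table, on GENCODE M4, 0 of these 6 members passed between libraries 2 and 3 in the chi-square test (adjusted p from 0.111 for Thy1 to 0.986 for Ly6e), beside 0.984% of 9857 genes. At an unadjusted p below 0.05 those counts gave 1 member, Thy1, and 1206 genes. Those counts are a small part of the M21 counts for abundant genes, so not passing does not show equal levels. On the M21 counts the chi-square statistics of libraries 2 and 3 were also divided by the median overdispersion of those libraries alone. Ly6c1 then did not pass (adjusted p = 0.352), while 5 of 6 members and 3.62% of genes did. Levels in the order library 3 above library 2 above library 1 were seen in 6 of 6 members tested and in 19.1% of genes.

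Transcript length moved with these differences across all genes. Among protein-coding genes of 500 to 750 bases the median difference of library 3 from library 2 in log2(TPM + 1) was 0.12, from 750 to 1000 bases 0.05, from 1000 to 1500 bases −0.03 and above 3000 bases −0.12. The 6 members tested are short, with mean lengths from 514 bases for Cd52 to 1112 for Ly6e. Within its own length class each member lay above the median, with 71.7% (Cd52) to 97.6% (Ly6c1) of the class below it. In library 1 against the others the medians of the classes that hold members were 0.21 to 0.33, and each member was below its class, with 3.12% (Ly6c2) to 18.5% (Cd52) of genes lower. Thy1 and Ly6c1 lay above the 90th percentile of their class in library 3 against library 2, and Ly6c2, Ly6a, Ly6c1 and Thy1 below the 10th in library 1 against the others. The part of length in the members' differences was not tested.

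**Figure D4:**
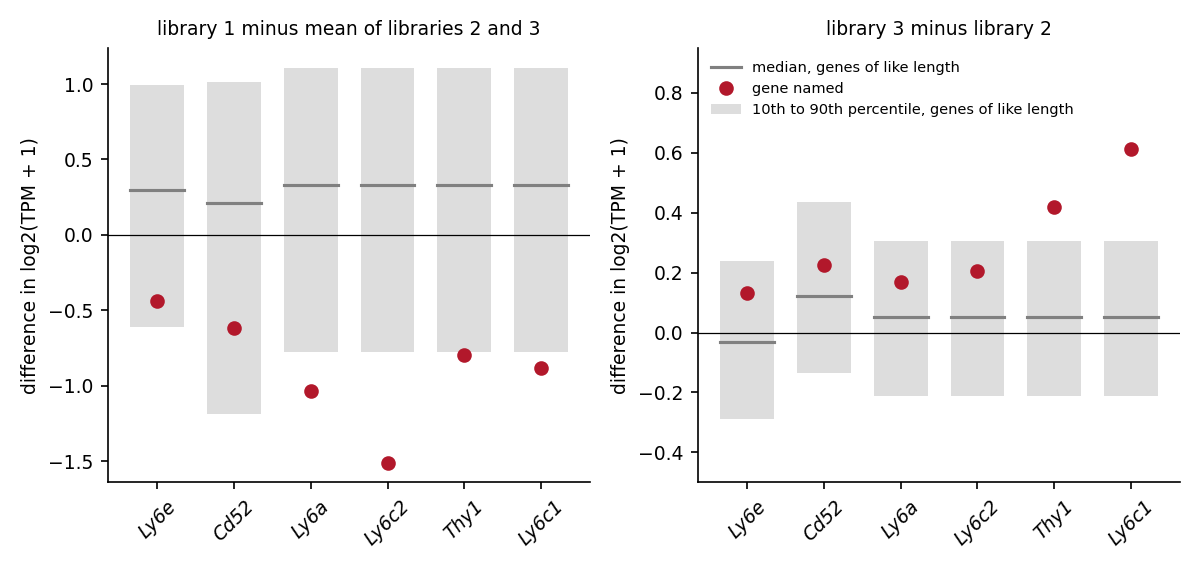
Difference in log2(TPM + 1) of the 6 genes tested (red points), at left library 1 minus the mean of libraries 2 and 3 and at right library 3 minus library 2, with the median (line) and the 10th to 90th percentile (bar) of protein-coding genes in the same length class. All points are under their class median at left, from −0.44 to −1.51, and above it at right, from 0.13 to 0.61.

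The M4 table of whole-number counts gave smaller differences for the same libraries. Scaled to the library total, as CPM, Ly6e had 181, 184 and 185 CPM in libraries 1, 2 and 3 of that table, and Cd52 had 94.2, 95.5 and 97.6. Ly6a had 91.7, 112 and 115, and Ly6c2 had 41.9, 59.8 and 67.6. Thy1 had 41.5, 43.6 and 57.2, and Ly6c1 had 4.51, 4.95 and 7.77. The rank of the libraries was the same in each of these genes, while the chi-square test on these counts called Ly6a, Ly6c2 and Thy1 only, beside 68.4% of genes. Cd52 (adjusted p = 0.876), Ly6e (adjusted p = 0.880) and Ly6c1 (adjusted p = 0.0828) did not pass it. Per library and base of length, Ly6e had 0.848 and Cd52 0.959 M4 counts, against 12.5 and 11.6 M21 expected counts. Not passing on counts reduced this far does not show that their levels were equal.

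Among the 6 members tested the tables parted most for the most abundant. M4 counts came to 6.77% of the M21 expected counts for Ly6e, 8.26% for Cd52, 12.3% for Ly6c2, 17.3% for Ly6a, 24.6% for Ly6c1 and 33.7% for Thy1. The untested Ly6d had 10 M4 counts beside 20 M21 counts, and Cd24a had 1 beside 19 (5.26%). The median over 10957 genes was 51.5%. Among the 98 genes with more than 10 M21 counts per library and base of length, which include Ly6e and Cd52, the median was 4.80%, and it was 33.7% from 1 to 10 and 55.0% from 0.1 to 1. Ly6e and Cd52 lay between the 10th (1.15%) and 90th (15.3%) percentile of the 60 genes in the abundance bin that holds them. Ly6c2 and Ly6a lay below the median of 33.7% of their wider class, and Ly6c1 and Thy1 below the 55.0% of theirs. In their narrower abundance bins Ly6a, Ly6c2 and Thy1 lay between the 10th and 90th percentile. Ly6c1, at 24.6%, lay just below the 10th percentile of its bin (25.8%). The sources used here do not name the counter behind the M4 table.

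**Figure D5:**
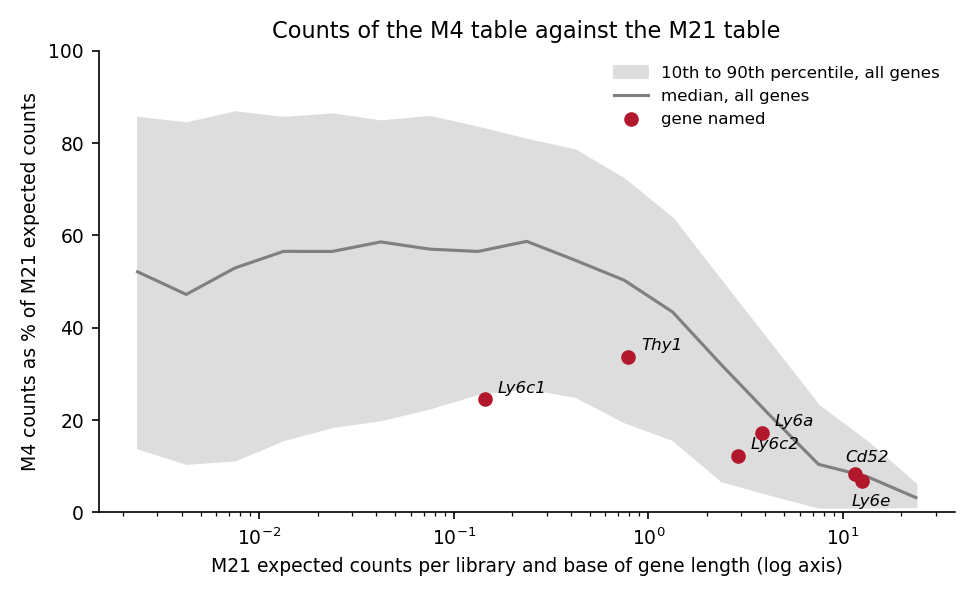
M4 counts as a percent of M21 expected counts, summed over the libraries, against M21 expected counts per library and base of gene length (log axis). The grey line and band are the median and the 10th to 90th percentile of all genes, which drop at high abundance, and the 6 members tested run from 33.7% (Thy1) to 6.77% (Ly6e).

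Other genes of the Ly6 and uPAR families were mostly undetected. Of 34 in the annotation 4 were detected and 17 had no count. They were Plaur, the urokinase receptor gene, Ly6k, Lypd6b and Ly6g5b. Plaur had 52.6, 13.4 and 11.4 TPM in libraries 1, 2 and 3, the reverse of the members' order, and it passed the chi-square test (adjusted p = 7.4e-131). Ly6k averaged 4.77, Lypd6b 2.00 and Ly6g5b 1.54 TPM. Of the 4 genes 3 passed the test over the 3 libraries, as did 75.8% of 13177 genes, so passing is not particular to them.

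Other GPI-anchored surface proteins were represented by 19 detected of 59 annotated genes. The highest were H2-Q7, which encodes a GPI-anchored class Ib molecule of the Qa-2 type, and H2-Q6. H2-Q7 had 719, 2254 and 2113 TPM in libraries 1, 2 and 3, and H2-Q6 had 360.4, 878 and 839. These belong to a set of near-identical copies, so their split is uncertain. Izumo1r, the gene of folate receptor 4, stood at 117 ± 9.57 and Cd48, a ligand of CD2 and CD244, at 90.8 ± 12.7 TPM (SD, n = 3). Over the 3 libraries 19 of 23 tested genes passed, 11 of them lower and 2 higher in library 1 by the 1.5-fold rule, where over all genes 75.8% passed, 24.1% were lower and 16% higher. Between libraries 2 and 3, 1 of 22 passed, against 16.7% of all genes.

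The machinery that makes and attaches the anchor was detected almost in full, at 34 of 37 genes with a median of 17.9 TPM over the 37. Tmed2 and Tmed10, cargo receptors that carry anchored proteins out of the endoplasmic reticulum, led at 733 ± 496 and 259.8 ± 154 TPM (SD, n = 3). Mppe1, a phosphodiesterase that remodels the glycan, stood at 94.2 ± 22.6 and Dpm1, the catalytic subunit of dolichol-phosphate-mannose synthase, at 91.3 ± 37.0 TPM (SD, n = 3). Tmed2 was high in library 1, with 1306 TPM, against 477 in library 2 and 418 in library 3, and Tmed10 had 438, 174 and 168 TPM in libraries 1, 2 and 3. Without library 1 their means were 447 and 171 TPM. Of 34 tested genes 28 passed over the 3 libraries, 7 of them lower and 8 higher in library 1 by the 1.5-fold rule, and 6 passed between libraries 2 and 3. The shares over all genes were those given for the list before, 75.8%, 24.1%, 16% and 16.7%. All 7 membrane domain signalling partners were detected. They were led by Lck at 1487 ± 748, Lat at 825 ± 519, Fyn at 479 ± 26.6 and Csk at 67.9 ± 31.9 TPM (SD, n = 3). Without library 1 the means were 1057 TPM for Lck, 525 TPM for Lat, 484 TPM for Fyn and 86.3 TPM for Csk.

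Several members are also expressed by other cell types, whose markers were measured beside them. Monocytes express Ly6C and neutrophils Ly6g, and 1 of 10 markers of these cells was detected, Cd68 at 4.72 TPM, while S100a8, S100a9 and Mpo had no count. Lyz2, at 1.32, 0.98 and 1.14 TPM in libraries 1, 2 and 3, missed detection in library 2 only. The list summed to 8.91, 6.92 and 6.46 TPM in libraries 1, 2 and 3, against 139, 371 and 428 TPM of Ly6c2. Endothelial cells can express Ly6a and Ly6c1. Of 6 endothelial markers, Pecam1 was detected at 64.7 TPM, and Cdh5, Kdr, Emcn, Tie1 and Plvap were at or below 0.330 TPM in every library. Of 9 B cell markers, Cd22 at 20.6 TPM and Ighd at 1.39 TPM were detected, and Ms4a1 and Pax5 were not. Cd79a, at 0.66, 1.92 and 1.65 TPM in libraries 1, 2 and 3, missed detection in library 1 only. The B cell list summed to 16.4, 30.5 and 27.1 TPM in libraries 1, 2 and 3. Of 6 markers of plasmacytoid dendritic cells, Irf8 at 8.70 and Tcf4 at 6.40 TPM were detected and Siglech was not. Of the NK cell markers Klrb1c at 8.68 and Eomes at 5.02 TPM were detected, and Ncr1 and Klra8 were not. No erythroid marker was detected, and their sum was 1.56, 12.1 and 1.5 TPM in libraries 1, 2 and 3. Cd8a had 3 counts and Cd8b1 averaged 8.18 TPM. The part of other cells in the members' levels was not tested.

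Genes of like level were sought among 22020 other protein-coding genes by the Euclidean distance of log2(TPM + 1) over the 3 libraries. That distance does not set level aside, so a near gene need not follow the same order of libraries. Nearest to Ly6e were Ptprc, the CD45 gene, at a distance of 0.18 and Hsp90ab1 at 0.19. Nearest to Cd52 were Tpt1 at 0.23 and Crip1 at 0.24, and nearest to Ly6a were the mitochondrial genes mt-Nd2 at 0.16 and mt-Nd6 at 0.20. Ptprc had 1120.2, 1508 and 1409 TPM and Hsp90ab1 had 1142, 1536 and 1463 TPM in libraries 1, 2 and 3. For both, library 2 and not library 3 was the highest. Tpt1 had 819, 1294 and 1544 TPM and mt-Nd2 had 250.05, 425 and 533 TPM, in the same order of libraries as Cd52 and Ly6a.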

How the data were processed

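Poly(A)-selected RNA was measured in 3 libraries of 1 biosample, which form 1 group. Per the file headers and the labels, the deposited tables use mouse build mm10. The M21 gene and transcript tables hold expected counts, TPM and FPKM as the authors deposited them, each TPM and FPKM scaled within its library, and the deposited transcript tables give each transcript's percent of its gene. A further table, deposited without a header, holds whole-number counts on GENCODE M4. The sources used here name no aligner, quantifier, counter or strand setting. The read length of 50 bases was read from the gap between transcript and effective lengths.

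Library totals were summed over 55536 Ensembl genes, and 0.226% to 0.304% of expected counts on other rows were left out. Expected counts were rounded for the chi-square test (scipy 1.17.1). No quasi-likelihood test was possible with 1 group. TMM sizes and the common coefficient of variation came from edgeR 4.0.16 and size factors from DESeq2 1.42.0 in R 4.3.3. Python 3.11.15, numpy 2.4.6, pandas 2.3.3 and matplotlib 3.10.9 were used. The test was checked on simulated counts that held counting error only, without the overdispersion of the real libraries. It called 8 of 12977 unchanged genes. Of 50 genes at each change in library 1, it called 21 at 1.2-fold, 35 at 1.5-fold, 40 at 2-fold and 50 at 4-fold. The check covers the calculation and gives no error rate for overdispersed libraries. Log2 values carry a pseudocount of 1. Symbols, classes and coordinates come from GENCODE M21 on GRCm38, the assembly of mm10, and promoters from RefSeq. The members, the gene lists and the alternatives were chosen with earlier results of these data known. The genes named outside the members are the 4 highest detected of each related list and every detected marker. The 2 genes nearest in level to each of the 3 most abundant members are named too. Genes neighbouring or overlapping a member, and some marker genes that were not detected, are also named. The 1.5-fold rule for library 1 asks for a TPM below (or above) both others and a difference in log2(TPM + 1) past 1.5-fold. The deposited TPM intervals were not used.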

Additional observations from a re-analysis of the deposited data

How the results depend on the processing

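All values come from libraries labelled as 1 biosample, so they carry no spread between animals. Depth limits Ly6d, Cd24a and Ly6c1, which have 20, 19 and 362 counts in all. On M4 counts the chi-square test called 3 of the 6 members over the 3 libraries, beside 68.4% of genes. Between libraries 2 and 3 it called 0 of them, beside 0.984% of 9857 genes. There, 1 member (Thy1) and 1206 of all genes had an unadjusted p below 0.05, and the cause was not tested. The adjusted p of the 6 members between libraries 2 and 3 on these counts ran from 0.111 (Thy1) to 0.986 (Ly6e). M4 counts of abundant genes are a small part of their M21 counts, so not passing does not show equal levels. With TMM-scaled CPM the log2 differences of library 1 from the others were −1.35 for Ly6c2, −0.89 for Ly6a and −0.72 for Ly6c1. They were −0.51 for Thy1, −0.47 for Cd52 and −0.28 for Ly6e, short of 1.5-fold. With M4 CPM only Ly6c2, at −0.59, reached 1.5-fold, and the smallest difference was −0.03 for Ly6e. The share of all genes past 1.5-fold was not computed under these scalings, and the cause was not tested. None of the 6 members tested changed direction under these scalings. The untested Ly6d was highest in library 1 in TPM and lowest there in M4 CPM, at 0.588, 0.594 and 0.758 CPM in libraries 1, 2 and 3. Division by the median overdispersion, taken for each comparison from its own libraries, left 4 of 6 calls over the 3 libraries, beside 21.6% of genes. Between libraries 2 and 3 it left 5 of 6, beside 3.62% of genes. These shares are over genes of any depth that were tested. Leaving out each library in turn gave 6 of 6 calls each time. The share of all genes called was 16.7% without library 1, 74.6% without library 2 and 73.5% without library 3. It also left 6 to 7 of 7 neighbouring pairs in the same order and 57 to 60 detected genes in the 3 related lists. The members led by a transcript above 50% were 5 to 7. Ly6d has 1 annotated transcript, so it always counts. Ly6c1-201 and Cd24a-201 held 0% in library 1 and passed 50% in the 3-library mean through libraries 2 and 3. The count is therefore no measure of a steady leading isoform. Without library 1 Cd52 stood above Ly6e, and in M4 CPM Ly6a stood above Cd52. Detection at 5 TPM left 40 of 57 related genes, with 12 other GPI-anchored genes and 1 other Ly6 and uPAR gene. Of 30 summary values recomputed under the alternatives 26 were within 1.5 times the value reported. That rule is loose, as it lets 6 calls fall to 4 and 57 detected genes fall to 40. Leaving out library 1 also repeats the comparison of libraries 2 and 3. The 4 values outside the rule were the calls on M4 counts in both comparisons. The others were the numbers of members at least 1.5-fold lower in library 1 with TMM-scaled CPM and with M4 CPM. No paired analysis was possible because the libraries form 1 group.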
